A study of Mus musculus with 8 samples.

Results

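The 10 genes Ddx58, Ifih1, Dhx58, Eif2ak2, Zbp1, Znfx1, Mavs, Tlr3, Tlr7 and Adar encode sensors of foreign or misplaced RNA and DNA or proteins that work directly with them. They were taken by gene symbol from the table of gene counts, in which all 10 were found among 24421 genes, and all 10 passed the filter on low counts with 17328 genes in all. The RNA came from dorsal root ganglia of wild-type C57BL/6J mice, and the methods do not say from which side. The mice were 8 weeks old by the labels, while the methods give a wider range of ages. The 0d mice were naive and untreated. The 1d, 3d and 30d mice were sacrificed 1, 3 and 30 days after an injection of carrageenan, an inflammatory seaweed polysaccharide. Of a 1% solution, 20 µl were injected into the left hind paw. There were 2 libraries at each time, every one made from the pooled ganglia of 2 to 3 male mice, so a replicate is a pool. No mice injected with vehicle were analysed here, so the injection itself and carrageenan cannot be told apart. The labels name DRG neurons, but the methods describe whole dissected ganglia, in which fewer cells of a type and less RNA per cell cannot be told apart.

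Cells recognise viral nucleic acids, and their own when these are misplaced, by place and shape. In the cytosol the helicases RIG-I (Ddx58) and MDA5 (Ifih1) bind double-stranded or uncapped RNA and signal through the mitochondrial adaptor MAVS to type I interferon, while LGP2 (Dhx58) lacks the signalling domains and tunes the other two. PKR (Eif2ak2) binds double-stranded RNA and halts translation, ZBP1 binds Z-form nucleic acids and can start cell death, ZNFX1 is an antiviral helicase of the mitochondrial surface, and the editor ADAR1 (Adar) alters self RNA so that these sensors ignore it. TLR3 and TLR7 survey RNA in endosomes. Several of these genes are themselves induced by interferon, through the interferon-stimulated response element in their promoters.

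The core of this element was sought as 2 GAAA half-sites with any 2 bases between them, on both strands of promoter windows from RefSeq on GRCm38, the same assembly as mm10, from 250 bases before to 50 bases after each transcription start. Windows were found for 7 of the 10 genes, not for Dhx58, Zbp1 and Tlr7. The core was present for 3 of the 7, namely Ddx58, Ifih1 and Eif2ak2, and for 3.99% of all 27025 genes with a window. The matches are shown with their flanks, 5′ to 3′ on the gene's strand and with the core in capitals. For Ddx58 the capitals are its reverse complement. The match of Ddx58 lies at chr4:40239804-40239833, that of Ifih1 at chr2:62646206-62646233 and that of Eif2ak2 at chr17:78882535-78882564, all on the minus strand and at the beginning of the transcript, where the capitals start at base 3, 33 and 19. The core was not in the windows of Znfx1, Mavs, Tlr3 and Adar. Znfx1 was called higher at 1d, as were the 3 genes with a match. A window of Adar held 2 GAAA half-sites closer together than this pattern allows, which the search would not count. The gamma-activated site, TTCNNNGAA, the element of interferon gamma responses, was in windows of 2 of the 7, Adar and Eif2ak2, and of 9.55% of all genes. A match of letters does not show that a factor binds there.
Ddx58: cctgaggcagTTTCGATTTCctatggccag
Ifih1: gaagagaatcGAAACAGAAAccgatctg
Eif2ak2: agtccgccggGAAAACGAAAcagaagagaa

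Library totals ranged from 44123208 to 73580338 counts, and no pair of replicates was as alike as counting error alone would make it (chi-square over its degrees of freedom, 7.19 to 25.4). Levels are given as CPM, counts per 1000000 of the TMM-scaled library, and as RPKM, the same per 1000 bases of exon, where genes are compared with each other. The summed level of 6 neuron markers was between 9714 and 10374 CPM in all libraries. The 2 libraries of 0d, and also those of 30d, differed from each other in markers of other cells. Summed red blood cell markers were at 95.3 and 193 CPM at 0d and 359 and 189 CPM at 30d, over 4 of 7 genes, since 3 globin symbols repeat the counts of another and were taken once. Summed skeletal muscle markers were at 111 and 55.3 CPM at 0d, 22.4 and 49.0 CPM at 1d, 51.6 and 52.1 CPM at 3d, and 90.2 and 17.7 CPM at 30d.

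In the naive ganglia of 0d the genes differed widely in level. Per length, Znfx1 was highest with 20.0 ± 0.298 RPKM (SD, n = 2), followed by Adar with 15.2 ± 0.80, Eif2ak2 with 7.18 ± 0.237, Ddx58 with 6.26 ± 0.418 and Mavs with 3.12 ± 0.0234 RPKM (SD, n = 2 each). Tlr3 held 2.06 ± 0.166 RPKM and Ifih1 1.88 ± 0.109 RPKM (SD, n = 2 each), and this was the pair of neighbours whose libraries overlapped at 0d. Dhx58 with 1.19 ± 0.0424, Zbp1 with 0.571 ± 0.00342 and Tlr7 with 0.365 ± 0.0412 RPKM (SD, n = 2 each) were the lowest. At 1d the middle of this order closed up. Ddx58 reached 10.4 ± 0.526 RPKM beside Eif2ak2 with 10.7 ± 0.0915, Ifih1 reached 3.42 ± 0.273 beside Mavs with 3.29 ± 0.0975, and Zbp1 reached 2.45 ± 0.405 beside Dhx58 with 2.53 ± 0.142 RPKM (SD, n = 2 each). The libraries of each of these 3 pairs overlapped at 1d, as did those of Zbp1 and Tlr3.

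**Figure D1:**
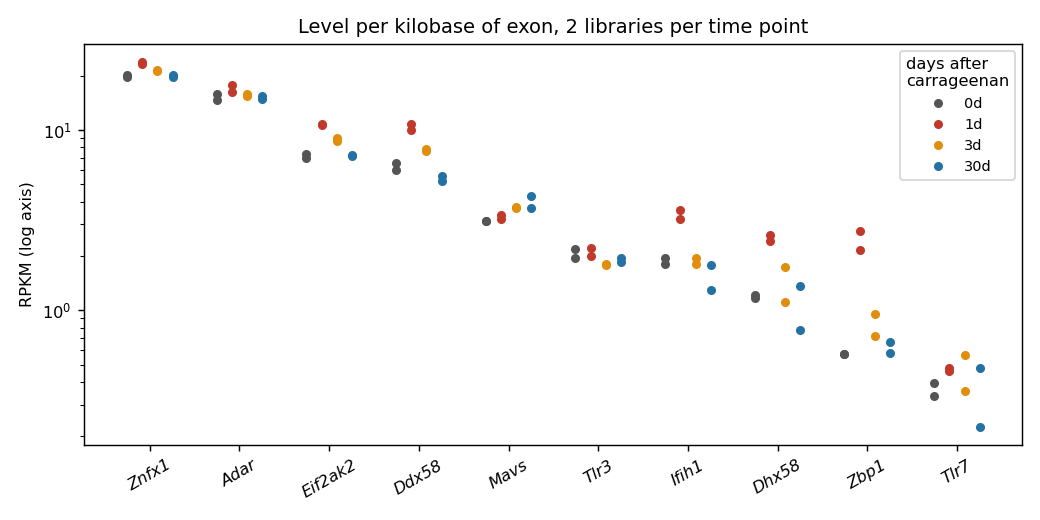
RPKM of each gene on a log axis, ordered by the 0d mean, with 1 point per library and colours for the 4 time points. Zbp1 moves from 0.571 RPKM at 0d to 2.45 RPKM at 1d, next to Dhx58, while Tlr3 and Tlr7 keep to the lower part of the plot.

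One day after injection, 5 of the 10 genes were higher than at 0d at a Benjamini-Hochberg adjusted p under 0.05 in edgeR's quasi-likelihood test, and none was lower. They were Zbp1, Ifih1, Ddx58, Eif2ak2 and Znfx1. Over all genes tested, 0.346% passed at 1d, and 0.329% passed and were higher. All 10 fitted log2 fold changes were above 0, against 48.8% of all genes, with a median of 0.47 against -0.00 over all genes. The libraries of 9 of the 10 genes, all but Tlr3, lay above both 0d libraries, against 15.5% of all genes.

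The RIG-I-like receptors detect viral RNA in the cytosol. Ddx58 (chromosome 4 of mm10, 40203777 to 40239825) was at 29.5 and 32.4 CPM at 0d, 53.3 and 49.6 CPM at 1d, 38.0 and 38.7 CPM at 3d, and 27.6 and 25.7 CPM at 30d. The time points did not overlap, with 1d highest, 3d next and 30d below 0d. At 1d its log2 fold change against 0d was 0.73 ± 0.07 (SE), with an adjusted p of 0.000119 in edgeR, or 1.66-fold. It was then lower at 3d than at 1d by a log2 fold change of -0.42 and lower at 30d than at 3d by -0.53 (adjusted p = 0.0200 and 0.00335 by edgeR). Ddx58 was the member that passed in the step from 3d to 30d, in which 0.935% of all genes passed and 0.727% were lower. Against 0d its log2 fold change was 0.31 at 3d and -0.22 at 30d (adjusted p = 0.159 and 0.263 by edgeR), which did not pass. At 3d the adjusted p in edgeR was 0.0431 without the filter on low counts.

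Ifih1 (chromosome 2, 62595793 to 62646255) was at 9.96 and 10.8 CPM at 0d, 19.9 and 17.8 CPM at 1d, 10.0 and 10.8 CPM at 3d, and 9.84 and 7.11 CPM at 30d. The 1d libraries stood above all others, and those of 3d lay within the range of 0d. At 1d the log2 fold change was 0.86 ± 0.14 (SE), with an adjusted p of 0.0136 in edgeR, or 1.82-fold, and from 1d to 3d it was -0.86 ± 0.14 (SE), with an adjusted p of 0.0153 in edgeR. At 3d the difference from 0d was 0.00 on the log2 scale, with a 95% interval from -0.30 to 0.31. The interval at 3d lay above 0 for Ddx58, from 0.15 to 0.46, although neither gene passed against 0d, and the difference between the 2 genes was not tested. Without 0d replicate 1 or without 1d replicate 1 the adjusted p of Ifih1 at 1d was 0.172 and 0.270.

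Dhx58 (chromosome 11, 100694884 to 100704271), the remaining helicase of the family, was at 2.95 and 2.80 CPM at 0d, 6.34 and 5.86 CPM at 1d, 4.19 and 2.68 CPM at 3d, and 3.30 and 1.89 CPM at 30d. Both 1d libraries were above all others, and the pairs of 3d and 30d spread around the 0d level. Its log2 fold change at 1d was 1.09 ± 0.27 (SE), with an adjusted p of 0.217 in edgeR, or 2.12-fold. Its counts were 156 and 172 at 0d and 294 and 257 at 1d. The sizes of change of the 3 helicases were not tested against each other. Dhx58 did not pass here, but its adjusted p was 0.0368 in DESeq2, 0.0317 without the filter on low counts and 0.0265 in a fit of 0d and 1d without the later times. In edgeR it was 0.0205 without 30d replicate 1 and 0.0201 without 30d replicate 2.

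Mavs (chromosome 2, 131234063 to 131248024) carries the signal of RIG-I and MDA5. It was at 10.0 and 9.91 CPM at 0d, 10.7 and 10.3 CPM at 1d, 11.96 and 11.7 CPM at 3d, and 11.8 and 13.8 CPM at 30d. The 0d libraries were lowest and those of 3d and 30d highest, an order unlike that of the receptors. The log2 fold change was 0.08 at 1d, with a 95% interval from -0.18 to 0.33, and 0.36 at 30d (standard error 0.12, edgeR adjusted p = 0.247). It passed in none of the comparisons.

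**Figure D2:**
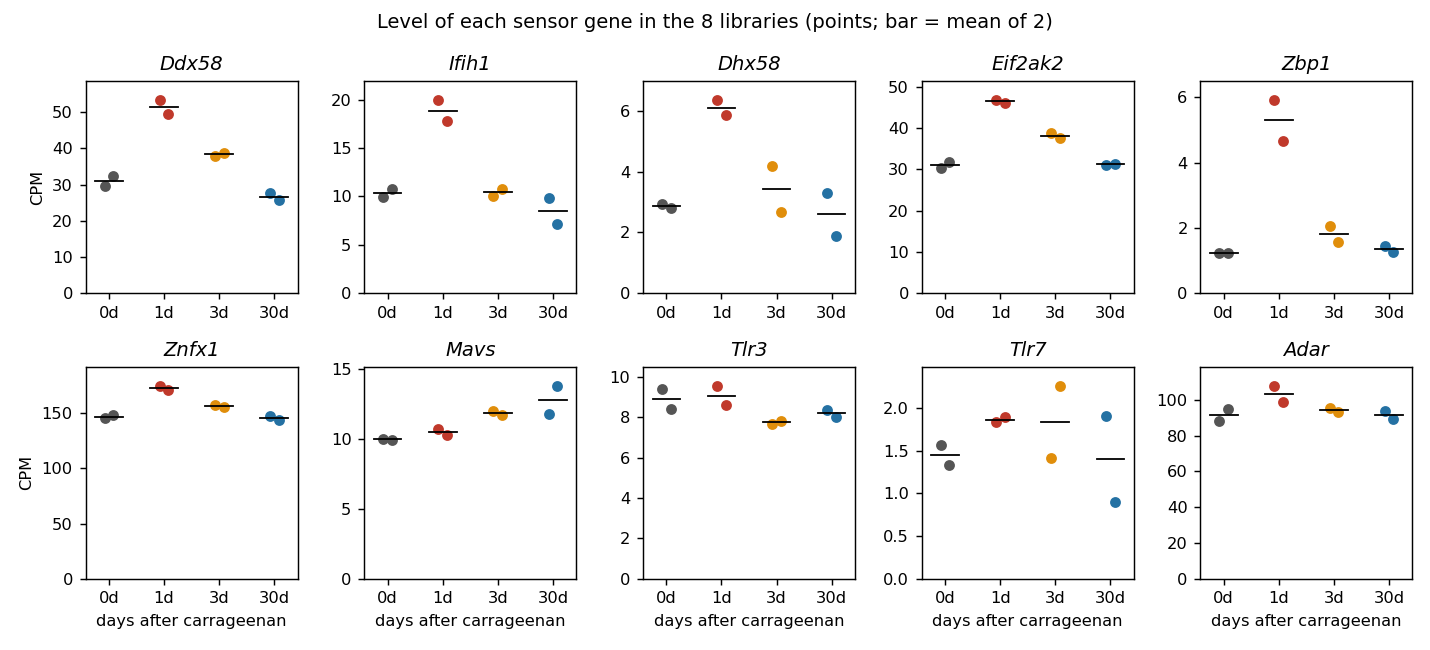
CPM of each gene in all 8 libraries, with the days after carrageenan on the horizontal axis, 1 point per library and a bar at the mean of 2. In the panels of Ddx58, Ifih1, Dhx58, Eif2ak2, Zbp1 and Znfx1 both 1d points are above every other point, and in the panel of Mavs the 30d mean, 12.8 CPM, is highest.

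ZBP1 is a sensor of Z-form nucleic acids. Zbp1 (chromosome 2, 173206612 to 173218922) was at 1.23 and 1.24 CPM at 0d, from 65 and 76 counts, and at 5.91 and 4.67 CPM at 1d, from 274 and 205 counts. It was at 2.05 and 1.56 CPM at 3d and 1.45 and 1.26 CPM at 30d. The 1d libraries were far above the rest, and the 3d and 30d libraries still lay just above those of 0d. The log2 fold change at 1d was 2.1 ± 0.27 (SE), with an adjusted p of 0.00106 in edgeR, or 4.29-fold, and 51 of the 17328 genes had a larger one. It was lower at 3d than at 1d by a log2 fold change of -1.55 ± 0.25 (SE), with an adjusted p of 0.0151 in edgeR. Against 0d its log2 fold change was 0.55 at 3d and 0.13 at 30d, neither past the threshold (adjusted p = 0.849 and 0.881 by edgeR).

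Eif2ak2 (chromosome 17, 78852550 to 78882572) was at 30.4 and 31.8 CPM at 0d, 46.7 and 46.2 CPM at 1d, 38.8 and 37.5 CPM at 3d, and 31.1 and 31.4 CPM at 30d. The 3d libraries lay between those of 1d and 0d, and the 30d libraries lay within the range of 0d. At 1d the log2 fold change was 0.58 ± 0.07 (SE), with an adjusted p of 0.000369 in edgeR, or 1.49-fold. At 3d it was 0.30 against 0d (standard error 0.07, edgeR adjusted p = 0.116), and DESeq2 gave an adjusted p of 0.0353 and a fit of unfiltered counts 0.0458. In edgeR the adjusted p was 0.0468 without 30d replicate 1 and 0.0478 without 30d replicate 2. The step from 3d to 30d had a log2 fold change of -0.29 (adjusted p = 0.0531 by edgeR), and in DESeq2 its adjusted p was 0.0182. Without 0d replicate 1 or 2 it was 0.0408 and 0.0406 in edgeR.

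Znfx1 (chromosome 2, 167035796 to 167063015) was at 145 and 148 CPM at 0d, 175 and 171 CPM at 1d, 157 and 155 CPM at 3d, and 147 and 144 CPM at 30d. These pairs were tight, with 1d highest and 3d between 1d and the rest. The log2 fold change at 1d was 0.23 ± 0.04 (SE), with an adjusted p of 0.0251 in edgeR, or 1.18-fold. This call depended on single libraries and on the fit, while the log2 fold change stayed between 0.22 and 0.25 with any 1 library left out. The adjusted p in edgeR was 0.0565 without robust estimation, 0.112 in a fit of 0d and 1d without the later times, and between 0.0531 and 0.306 when any library of 0d, 1d or 3d was left out. Of the exon bases of Znfx1, 1.1% are shared with 1500012F01Rik, whose reads cannot be told apart there.

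Adar (chromosome 3, 89715022 to 89753455) was at 88.2 and 95.1 CPM at 0d, 108 and 98.5 CPM at 1d, 95.3 and 93.4 CPM at 3d, and 93.7 and 89.3 CPM at 30d. Both 1d libraries were above the others by a small margin. The log2 fold change at 1d was 0.17, with a 95% interval from 0.05 to 0.29 (adjusted p = 0.710 by edgeR). A gene count adds up the long, interferon-inducible and the short, constitutive form of ADAR1, so a change in their ratio would not be seen.

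The endosomal receptors did not pass at any time. Tlr3 (chromosome 8, 45395665 to 45410539) was at 9.41 and 8.40 CPM at 0d, 9.56 and 8.60 CPM at 1d, 7.67 and 7.84 CPM at 3d, and 8.39 and 8.04 CPM at 30d. Its 0d and 1d libraries overlapped, and its log2 fold change at 1d was 0.03 with a 95% interval from -0.26 to 0.31. Tlr7 (chromosome X, 167304926 to 167330571), a receptor for single-stranded RNA, was at 1.57 and 1.34 CPM at 0d, 1.83 and 1.89 CPM at 1d, 1.41 and 2.26 CPM at 3d, and 1.90 and 0.900 CPM at 30d. Its libraries held 63 to 165 counts, and the 3d and 30d pairs spread more widely than any difference between time points. The 95% interval of its log2 fold change at 1d, from -0.44 to 1.16, does not exclude a change of the size seen for Ifih1.

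**Figure D3:**
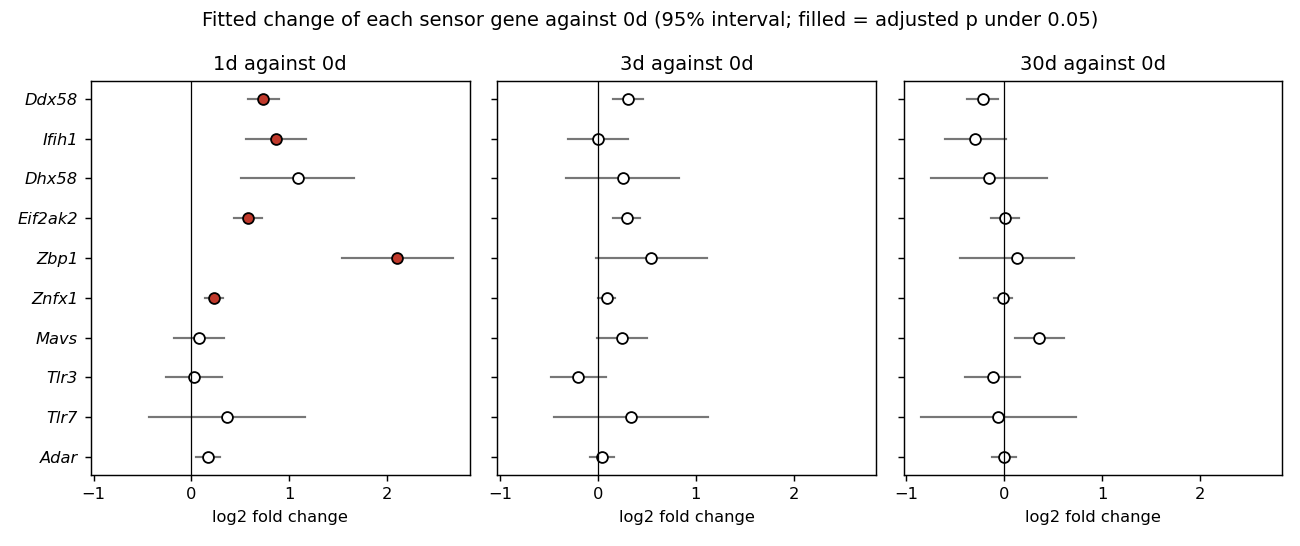
Fitted log2 fold change of each gene against 0d at 1d, 3d and 30d, with 95% intervals as lines and filled points for an adjusted p under 0.05. Zbp1, Ifih1, Ddx58, Eif2ak2 and Znfx1 are filled at 1d, and no point is filled at 3d or 30d.

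The 3 comparisons with 0d share the 0d libraries, so their values are given side by side and not as repeats. No member passed at 3d or at 30d in the reported edgeR fit, where 0.219% and 0.0231% of all genes passed. With an unadjusted p under 0.05 there were 2 at 3d, Ddx58 and Eif2ak2, and 2 at 30d, Ddx58 and Mavs, while 5.94% and 12.3% of all genes had one. DESeq2 called 1 at 3d, Eif2ak2, and 0 at 30d, and limma-voom 0 at both. Without the filter on low counts, edgeR called 2 at 3d, Ddx58 and Eif2ak2, and 0 at 30d. The median log2 fold change of the 10 genes was 0.47 at 1d, 0.25 at 3d and -0.03 at 30d. Between time points after injection, 3 members were lower at 3d than at 1d, Ddx58, Ifih1 and Zbp1, where 0.289% of all genes passed and 0.265% were lower. DESeq2 called 4, with Eif2ak2 as the addition (adjusted p = 0.0470), and a fit of 1d and 3d alone called 5, with Eif2ak2 and Dhx58 added (adjusted p = 0.00847 and 0.0228 by edgeR). From 1d to 30d, 5 members were lower, where 0.571% of all genes passed and 0.514% were lower. The log2 fold changes from 1d to 30d were -0.95 for Ddx58, -1.16 for Ifih1, -0.57 for Eif2ak2, -1.97 for Zbp1 and -0.24 for Znfx1 (adjusted p = 9.07e-06, 0.000919, 0.000496, 0.00159 and 0.0147 by edgeR). The call of Znfx1 from 1d to 30d was lost when either 1d library, either 3d library or 30d replicate 2 was left out, with adjusted p between 0.0563 and 0.0703 in edgeR, and in a fit of 1d and 30d alone, with 0.0665. Dhx58 had -1.24 ± 0.27 (SE), with an adjusted p of 0.0678 in edgeR. It passed in DESeq2, without the filter on low counts, with a replicate block and without 30d replicate 1 (adjusted p = 0.00381, 0.00476, 0.0134 and 0.00392). Without 0d replicate 1 or 1d replicate 1, 3 members passed at 1d, Ddx58, Eif2ak2 and Zbp1. From 1d to 3d, 0 passed in edgeR without 1d replicate 1, 3d replicate 1 or 3d replicate 2, where 6, 6 and 5 had an unadjusted p under 0.05, and 1 passed without 1d replicate 2. Ifih1 passed from 3d to 30d without 30d replicate 1, with an adjusted p of 0.0399 in edgeR. From 3d to 30d, 0 passed in edgeR without 3d replicate 1 or 3d replicate 2, where 2 and 3 had an unadjusted p under 0.05.

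The genes with the most similar profiles are given only as a description, over 8 libraries in which all of them share the same 1d pair. By Pearson's r of log2 CPM, the nearest genes to Ddx58 outside the 10 were Ifit1, Gm6548 and Oasl2 (0.989, 0.983 and 0.978). Those nearest to Ifih1 were Rnf219, Igtp and Trim30a (0.991, 0.982 and 0.981), and those nearest to Eif2ak2 were Lgals3bp, Gm6548 and Ifit1 (0.991, 0.991 and 0.974). For Znfx1 they were Ifit3, Irf7 and Gm6548 (0.988, 0.985 and 0.982). Among the members, r was 0.986 between Eif2ak2 and Znfx1, 0.914 between Ifih1 and Dhx58, and -0.59 between Ifih1 and Mavs.

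Other genes of the same pathways were counted from 5 lists. Of 22 tested genes of RIG-I-like receptor signalling, 5 rose at 1d and none fell, against 0.329% of all genes called higher, with a list median of 0.04. They were Irf7, the transcription factor that amplifies type I interferon, Ddx60 and Zc3hav1, helpers of viral RNA recognition, Trim25, the ubiquitin ligase that activates RIG-I, and Usp18, which removes ISG15 and restrains interferon signalling. Irf7 was at 6.67 and 7.52 CPM at 0d and 24.1 and 20.0 CPM at 1d. Ddx60 was at 4.06 and 3.33 CPM at 0d and 10.1 and 8.55 CPM at 1d, a log2 fold change of 1.34 ± 0.18 (SE), with an adjusted p of 0.00151 in edgeR. Usp18 rose by 1.42, Zc3hav1 by 0.63 and Trim25 by 0.56 on the log2 scale (adjusted p = 0.00133, 0.0103 and 0.0367 by edgeR). None of the 22 passed against 0d at 3d or 30d, where 2 and 1 had an unadjusted p under 0.05 in edgeR, beside 5.94% and 12.3% of all genes. From 1d to 3d, Irf7, Ddx60 and Usp18 were lower, by log2 fold changes of -1.21, -1.08 and -1.12 (adjusted p = 0.00256, 0.0129 and 0.0140 by edgeR), where 0.265% of all genes were called lower. From 1d to 30d all 5 were lower, and from 3d to 30d Irf7 was, where 0.514% and 0.727% of all genes were. The promoter window of Ddx60 held the core of the response element at 2 places before the start, at chr8:61928024-61928053 and chr8:61928058-61928087 on the plus strand, shown because Ddx60 was the one with a match among the called list genes. Windows were found for 5 of the 6 genes of the lists called at 1d, not for Usp18, and the core was not in those of Irf7, Zc3hav1, Trim25 and Samhd1. That of Samhd1 held a gamma-activated site.
Ddx60, distal: gtgatgaatgGAAACCGAAActtaaagctt
Ddx60, proximal: gagcagaagaGAAACCGAAActatccttca

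In the list of endosomal receptor genes, which holds Tlr8, Tlr9, Tlr13, their chaperone Unc93b1 and the adaptors Myd88 and Ticam1, 0 of 15 passed at 1d in edgeR, and 0 had an unadjusted p under 0.05. Over all genes, 0.346% passed at 1d and 4.47% had such an unadjusted p. The list median was 0.09. Lgmn, a lysosomal protease that processes these receptors, was lower at 30d than at 3d by a log2 fold change of -0.29 ± 0.04 (SE), with an adjusted p of 0.00449 in edgeR, from 366 and 349 CPM to 287 and 300 CPM. It was the 1 of 15 called in this step, where 0.727% of all genes passed and were lower. In the list of cytosolic DNA sensing, 0 of 18 passed at 1d in edgeR, 6 had an unadjusted p under 0.05, as did 4.47% of all genes, and the median was 0.26. Ifi203, of the interferon-inducible DNA-binding family, had the smallest p of the list with a log2 fold change of 0.72 ± 0.20 (SE), with an adjusted p of 0.341 in edgeR. Tmem173, which encodes STING, was named after its values were seen. It was at 3.80 and 5.12 CPM at 0d, 7.96 and 7.68 CPM at 1d, 7.85 and 7.84 CPM at 3d, and 5.42 and 3.24 CPM at 30d. Its 1d and 3d pairs lay above those of 0d, with a log2 fold change of 0.81 at 1d (standard error 0.22, edgeR adjusted p = 0.341).

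Of 13 genes that keep self nucleic acids in check, 1 rose at 1d, against 0.329% of all genes. This was Samhd1, the triphosphohydrolase that depletes deoxynucleotides, at 40.2 and 37.6 CPM at 0d and 54.2 and 49.7 CPM at 1d, a log2 fold change of 0.42 ± 0.07 (SE), with an adjusted p of 0.0150 in edgeR. Downstream of PKR and ZBP1, 0 of 14 genes passed at 1d in edgeR, 1 had an unadjusted p under 0.05, beside 4.47% of all genes, and the median was -0.01. That gene was Mlkl, the executor of necroptosis, at 1.29 and 1.09 CPM at 0d and 2.48 and 2.35 CPM at 1d, a log2 fold change of 1.02 ± 0.31 (SE), with an adjusted p of 0.497 in edgeR. Of the translation arm, named after the values were seen, the log2 fold changes at 1d were -0.08 for Eif2s1, the target of PKR, -0.10 for Atf4 and -0.02 for Ddit3, none of them past the threshold. Of 21 interferon genes in the table, 1 had any count, Ifng with 3 counts in 3d replicate 2, and none was tested. A count of 0 allows up to 3 counts, or between 0.0408 and 0.0680 CPM by library, for counting error only. Reads that map to several genes were not counted, and most of these genes are Ifna paralogues of similar sequence, so a count of 0 does not show that they were absent.

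**Figure D4:**
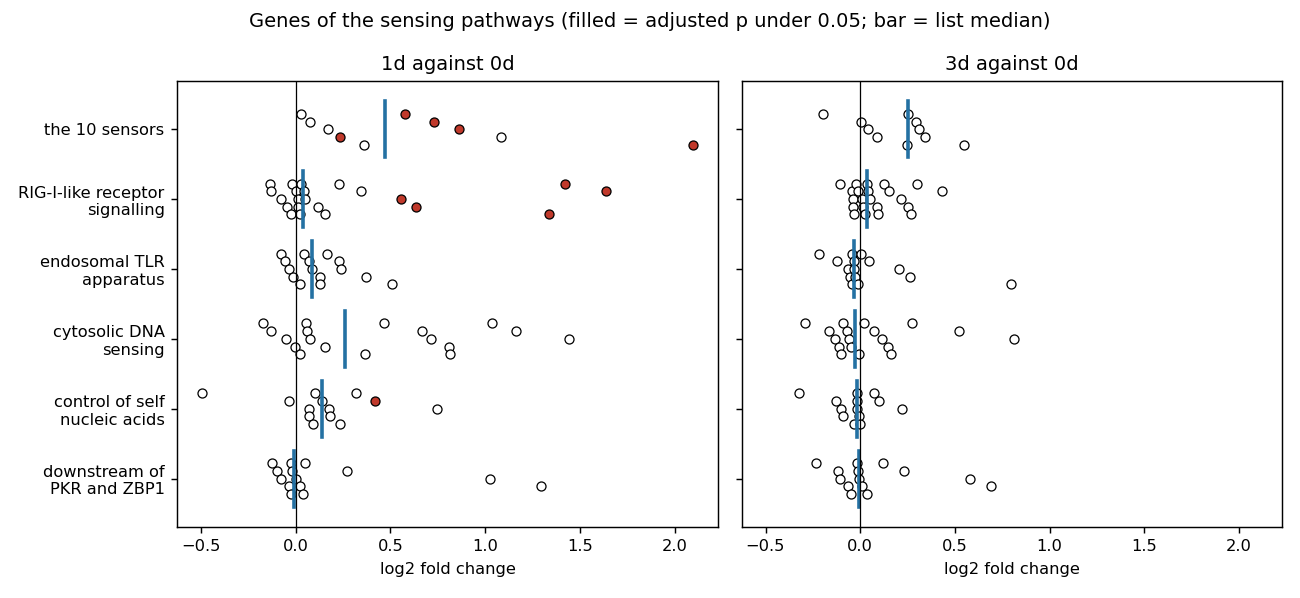
Log2 fold change against 0d at 1d and 3d of the 10 sensors and of 5 lists of pathway genes, with 1 point per gene, filled for an adjusted p under 0.05, and a bar at the list median. At 1d filled points stand among the sensors, the RIG-I-like receptor signalling genes and Samhd1, and at 3d no point is filled.

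Markers of other cells were read beside these changes, and their part in the result was not tested. The 8 macrophage markers summed to 84.4 and 70.8 CPM at 0d and 76.7 and 76.6 CPM at 1d, and none of the 8 passed at 1d. At 3d they summed to 77.3 and 77.0 CPM, and 3 of the 8 had a log2 fold change above 0 against 0d. The 1 that passed was Cx3cr1, lower than at 0d by a log2 fold change of -1.02 (adjusted p = 0.00794 by edgeR). It was also lower than at 1d, by -0.75 (adjusted p = 0.0476 by edgeR). The 7 neutrophil markers summed to 45.9 and 98.8 CPM at 0d, 106 and 115 CPM at 1d, 148 and 149 CPM at 3d, and 237 and 99.1 CPM at 30d, with none of the 7 past the threshold at 1d. All 6 skeletal muscle markers had a log2 fold change below 0 at 1d (median -1.42), and 1 of the 6 passed. This was Myh1, a myosin of fast muscle fibres, at 6.67 and 3.83 CPM at 0d and 1.99 and 1.80 CPM at 1d, with a log2 fold change of -1.47 at 1d and -1.61 at 3d (adjusted p = 0.0324 and 0.0237 by edgeR). Of 5 satellite glia markers none passed at 1d, and Apoe was lower at 30d than at 1d by a log2 fold change of -0.21 (adjusted p = 0.0213 by edgeR). Apoe was also lower at 30d than at 0d and than at 3d, by -0.28 and -0.23 (adjusted p = 0.0322 and 0.0128 by edgeR). In that last step, in which Ddx58 was lower, Myh1 was higher by 1.35 on the log2 scale (adjusted p = 0.0292 by edgeR). The 5 satellite glia markers summed to 2972 and 2947 CPM at 0d and 2743 and 2866 CPM at 1d. Fabp7 had a log2 fold change of -0.89 at 1d and did not pass. The 1 of the 5 above 0 at 1d was Glul, with 0.15. Schwann cell markers, 5 genes, summed to 10712 and 7828 CPM at 0d and 7599 and 7649 CPM at 1d, with none past the threshold at 1d. The 7 lymphocyte markers summed to between 2.67 and 6.13 CPM in all libraries. The 5 markers of plasmacytoid dendritic cells, a main source of type I interferon, summed to 11.5 and 13.7 CPM at 0d and 26.2 and 19.6 CPM at 1d, and 1 of the 5 passed. This was Bst2, an interferon-stimulated gene, with 9.28 and 12.1 CPM at 0d and 24.3 and 17.8 CPM at 1d (adjusted p = 0.0140 by edgeR). It was lower at 3d and at 30d than at 1d, with log2 fold changes of -0.88 and -1.22 (adjusted p = 0.0319 and 0.00229 by edgeR). The log2 fold changes of the other 4 at 1d were -0.01 for Siglech, 0.96 for Ccr9, 1.41 for Klk1 and -0.66 for Cox6a2, and none of the 4 exceeded 1.38 CPM in any library.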

How the data were processed

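By the methods and the table's header, the authors used cutadapt 2.10 for trimming, STAR 2.7.5a for alignment to mm10 and featureCounts 2.0.1 to count read pairs over the exons of UCSC genes. Strand was not used, pairs over several genes were counted for each, and multi-mapping reads were left out. The authors deposited raw counts. Exon lengths came from the same table. Libraries were mapped to time points by title.

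Counts of all 8 libraries were fitted together with edgeR 4.0.16 in R 4.3.3, with filterByExpr, TMM scaling, robust estimation and the time point as the only term. The quasi-likelihood test was adjusted by Benjamini-Hochberg over 17328 genes at a threshold of 0.05. The SE of a log2 fold change was taken from its size and the F statistic (size over root F), and 95% intervals use the fit's degrees of freedom. CPM are counts over TMM-scaled library size, and correlations used log2 CPM with a prior count of 2. The common biological coefficient of variation was 8.85%. With 2 pools against 2, an exact permutation test cannot go below p = 0.333, so all p-values come from models over all genes, and they measure the spread between these pools. Alternatives were RLE size factors, no filter, DESeq2 1.42.0, limma-voom (limma 3.58.1), no robust estimation, the compared groups alone, a replicate block and each library left out. The scripts were tested on simulated data. The members and lists were chosen with earlier results of these data known. All 10 members are described, and of the pathway lists, genes past the threshold or, failing that, the one with the smallest p at 1d. Of 50-base words of each member's longest GENCODE transcript, at most 0.352% (Eif2ak2) occurred in another gene. The genes with profiles most like that of Zbp1 are not reported here.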

Additional observations from a re-analysis of the deposited data

Results flagged for a closer look

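The effects at different times after injection differed for several sensors when tested directly, as the contrast between those time points in edgeR. From 1d to 3d the log2 fold change was -0.86 for Ifih1, -1.55 for Zbp1 and -0.42 for Ddx58. From 3d to 30d it was -0.53 for Ddx58. From 1d to 30d it was -0.57 for Eif2ak2, -1.16 for Ifih1, -0.24 for Znfx1, -1.97 for Zbp1 and -0.95 for Ddx58. Each was lower in both later libraries than in both earlier ones. Groups of 2 libraries were not searched for outlying samples.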

How the results depend on the processing

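No direction of a called member turned under any alternative, and among refitted member fold changes 848 kept their side of the threshold, 23 gained and 29 lost a call. Leaving out 1 library, the number of members called ranged from 3 to 6 at 1d against 0d, 0 to 1 at 3d, 0 to 0 at 30d, 0 to 3 from 1d to 3d, 0 to 2 from 3d to 30d and 4 to 6 from 1d to 30d. Over all genes the same ranges were 26 to 111, 1 to 121, 1 to 202, 5 to 117, 12 to 525 and 51 to 359. Without the filter on low counts, 2 members passed at 3d against 0d and 2 from 3d to 30d, and all genes called were 95, 89, 177, 99, 358 and 213 in the same order, against 60, 38, 4, 50, 162 and 99 in the reported fit. With DESeq2, 1 and 2 members passed in those 2 comparisons, and 110, 109, 184, 110, 378 and 229 of all genes. With limma-voom all genes called were 25 at 3d and 2 at 30d against 0d, and without robust estimation 20 at 3d, 0 at 30d and 92 from 3d to 30d. With the compared groups alone, 5 members passed from 1d to 3d, and 121 of all genes at 3d, 0 at 30d, 260 from 1d to 3d and 273 from 3d to 30d. In both edgeR fits with 0 at 30d, 2137 and 1366 genes had an unadjusted p under 0.05. The cause of these shifts was not tested.

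Deviations of same-numbered libraries correlated between -0.01 and 0.04 over all genes, and 4 of the 6 pairs of time points were above 0. Whether the replicate numbers pair the libraries in part of the genes was not tested. With the replicate block, 2 members passed from 3d to 30d, and all genes called were 69 at 30d against 0d, 77 from 1d to 3d and 159 from 1d to 30d. The mean CPM of Eif2ak2 at 30d was 31.5 with plain library sizes against 31.2.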
